A study of Homo sapiens with 18 samples.

Results

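The zinc response of HEK293A cells was compared between cells with and without the LATS1 and LATS2 kinases. HEK293A is a human embryonic kidney cell line that grows attached. For each gene the change from water to zinc in wild type was subtracted from the change from water to zinc in knockout, which uses 12 of the 18 libraries of the series and takes in every gene tested. The 4 groups held 3 libraries each: wild-type cells given water for 4 h, wild-type cells given 250 uM ZnCl2 for 4 h, and the same treatments in cells labelled as double knockouts of LATS1 and LATS2 (called knockout from here on). The remaining 6 libraries, both genotypes after 4 h in 50 uM CdCl2, entered the estimate of the spread and a comparison with zinc. Water is the vehicle control of both genotypes. The sources used here do not give how many knockout lines the libraries come from, so the effect of the knockout and that of the line cannot be told apart. The design text calls the replicates biological, and no separate cultures or days are named, so p-values rest on how far these libraries spread, which may be technical.

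LATS1 and LATS2 are the kinases at the end of the Hippo pathway: they phosphorylate the coactivators YAP and TAZ, which keeps these out of the nucleus and away from the TEAD transcription factors. A zinc load is sensed in the nucleus by the transcription factor MTF1, which switches on the metallothioneins and the zinc exporter SLC30A1. Metals that bind thiols also unfold proteins and deplete glutathione, and cells answer through HSF1 (cytosolic chaperones), NRF2 (antioxidant enzymes), ATF4 (the integrated stress response, which raises amino acid synthesis and transport) and MAP kinases (immediate early genes).

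Values are CPM, counts per 1000000 reads of the library after TMM scaling, given in the order of replicates 1, 2 and 3. The difference of the zinc response is on the log2 scale and is the change in knockout minus the change in wild type. A value above 0 thus belongs to a gene that zinc moved further up, or less far down, in knockout. Errors of log2 values are approximate standard errors from the test statistic, and the threshold was a Benjamini-Hochberg adjusted p under 0.05 in edgeR's quasi-likelihood test over 19393 genes, and a value past it is referred to as called. The 18 libraries held 25478614 to 37148046 counts, and replicates varied by a median of 3.93% (biological coefficient of variation). Over the 12 water and zinc libraries, 56.5% of the variance lay on a principal component that split the genotypes and 29.7% on one that split zinc from water. The library of replicate 3 of zinc-treated wild type was unlike its group: the chi-square of its counts over degrees of freedom was 4.96 and 5.04 against replicates 1 and 2, which had 1.88 between themselves. Where leaving it out ends a call or moves a printed value by much, the value without it is given as well.

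The kinases themselves were read first. LATS1 (ENSG00000131023, chromosome 6, 149658153 to 149718256) lay at 77.3–81.97 CPM in the wild-type water libraries and 78.2–84.5 CPM in zinc, against 44.02–46.1 and 48.4–50.4 CPM in knockout. The knockout libraries were below all wild-type libraries under both treatments, and the zinc response did not pass the test for a difference (0.09 ± 0.06, adjusted p = 0.276). LATS2 (ENSG00000150457, chromosome 13, 20973032 to 21061547), which is also a target of YAP and TAZ, was not lower in the knockout water libraries, at 18.2–18.9 CPM against 16.2–16.5 CPM. In zinc it reached 50.2, 44.3 and 49 CPM in wild type against 38.2, 35.99 and 40.4 CPM in knockout, with no overlap and a difference of -0.51 ± 0.08 (adjusted p = 8.34e-06). The sources used here do not give where the genes were edited, and edited genes may keep making RNA, so these levels do not check the knockout.

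The zinc response differed between the genotypes for 4767 of 19393 genes (24.6%), of which 2729 (14.1% of the genes tested) lay above 0 and 2038 (10.5%) below. Most of these differences were small: the median absolute difference of the called genes was 0.33 on the log2 scale, and 188 genes (0.969%) lay above 0 and 315 (1.62%) below by at least 2-fold, 503 (2.59%) in all. The median over all genes tested was 0.02. In RNA from whole cultures, fewer cells with a transcript and less of it per cell cannot be told apart. Without replicate 3 of zinc-treated wild type 4679 genes were called. By themselves the responses were broad in both genotypes, with 11892 genes (61.3%) changed by zinc in wild type, 5693 up (29.4%) and 6199 down (32.0%), and 10841 (55.9%) in knockout, 5468 up (28.2%) and 5373 down (27.7%). The split of directions moved with the scaling: by library size alone, without TMM, zinc raised 4903 and lowered 7173 genes in wild type, raised 4197 and lowered 7094 in knockout, and its difference lay above 0 for 2309 genes and below for 2335. The genotypes also differed without regard to the response, in 12200 genes (62.9%) in water, 5973 higher in knockout (30.8%) and 6227 lower (32.1%), and in 12928 (66.7%) in zinc, 6592 higher (34.0%) and 6336 lower (32.7%).

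Most called genes moved less in knockout: 3410 (71.5%) had the smaller absolute log2 change there. This share was not counted over all genes tested, so whether it is particular to the called genes was not tested. Of the 4767, 2481 were changed by zinc in the same direction in both genotypes, and 1924 of these (77.5%) changed less in knockout while 557 changed more. The commonest pattern was a fall in both genotypes that was smaller in knockout (1099 genes), followed by a rise in both that was smaller in knockout (825). A further 738 fell and 544 rose in wild type without passing the test in knockout, and 375 rose and 286 fell in knockout without passing it in wild type. In 311 genes zinc acted in opposite directions, 163 falling in wild type and rising in knockout and 148 the reverse. The remaining 32 called genes passed the test in neither genotype alone.

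A difference of the zinc response equals the gap between the genotypes in zinc minus their gap in water, and the most extreme genes combined the 2 gaps in different ways. Of the 10 genes with the highest difference (called, with a symbol and a mean of at least 5 CPM), 7 were lower in knockout in water (32.1% of all genes) and 1, IER5, was higher (30.8%). In zinc 8 were higher in knockout (34.0% of all genes) and 1, MIDN, was lower (32.7%). Of the 10 with the lowest difference, 7 were higher in knockout in water (30.8% of all genes) and 1, STC2, was lower (32.1%). In zinc ARC, BMP2, DEPP1 and PCDH9 were still higher in knockout, and CTH, DDIT4, SESN2, STC2 and TRIB3 were lower. Picking genes by an extreme difference favours such gaps, so these tallies describe the picked genes only. BMP2 and DEPP1 also reached the mean of 5 CPM only through their knockout libraries.

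**Figure D1:**
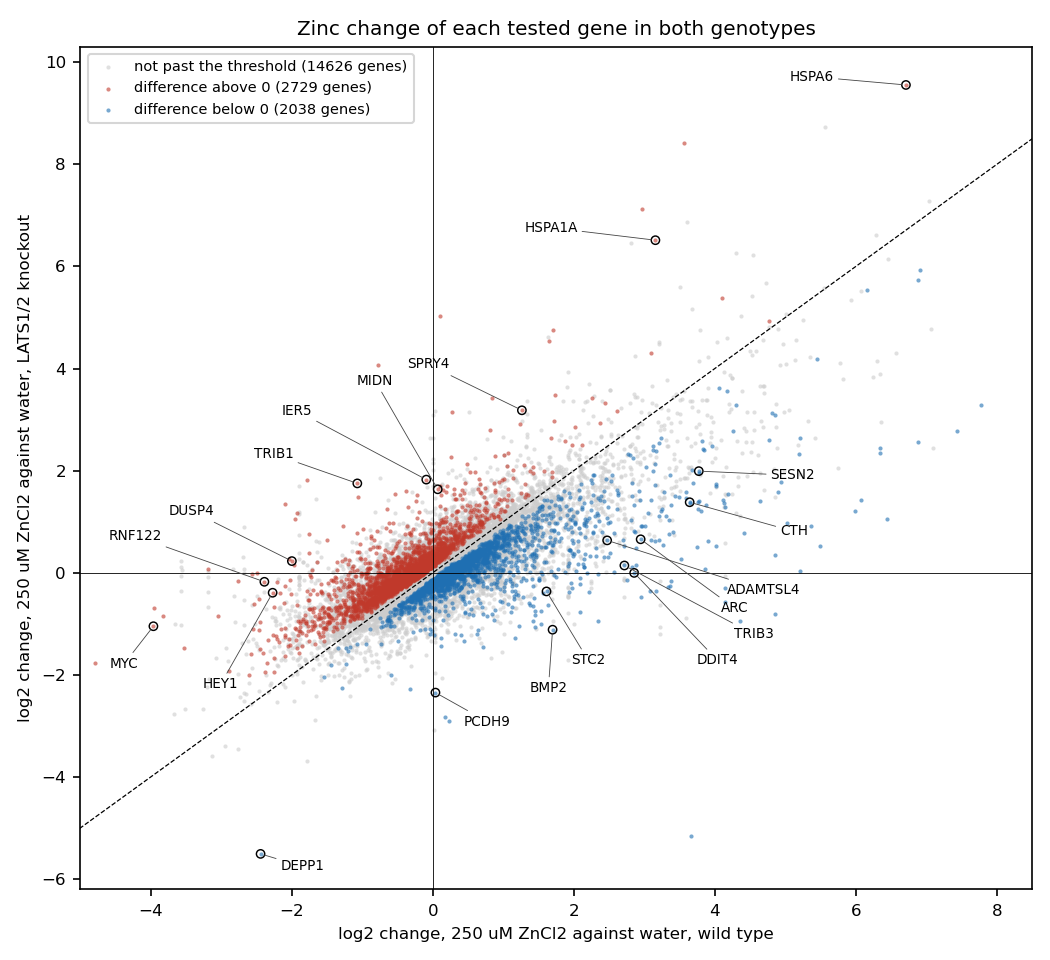
Each point is 1 of the 19393 tested genes, with its log2 change from water to zinc in wild type on the horizontal axis and in knockout on the vertical axis; the dashed line marks equal changes, and red and blue mark the 2729 and 2038 genes with a called difference above and below 0. The 10 genes with the highest and the 10 with the lowest difference at a mean of 5 CPM or more are circled: HSPA6 and HSPA1A lie far above the line, and a row of genes including DDIT4, TRIB3 and STC2 lies near 0 in knockout at log2 changes of 1.61 to 2.86 in wild type. The split of reads between HSPA1A and its near-identical copy HSPA1B is uncertain.

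Targets of ATF4, the transcription factor of the integrated stress response, had the lowest median difference of the 30 gene lists. Of 33 tested, 24 had a called difference below 0 (10.5% of all genes), 4 above 0 (14.1%) and 5 did not pass, with a median of -0.59 against 0.02 over all genes. In wild type zinc raised 29 members (29.4% of all genes) and lowered 4, with a median change of 1.02, and in knockout it raised 22 (28.2%) and lowered 4, with a median of 0.22. Under 20 alternative settings (another tool, scaling or filter, or 1 library left out) 24 to 26 members were below 0 and 4 above. Besides members that the naming rule picks, others of this and the following lists are given as examples chosen after their values were seen. In most lists the majority of tested members had a mean of at least 5 CPM. At that level 4071 of 11333 genes were called, a larger share than the 24.6% over all genes tested. The percentages of all genes given beside the lists are not matched for expression level.

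The lowest differences of the list were in genes that zinc raised many-fold in wild type. DDIT4 (ENSG00000168209, chromosome 10, 72273920 to 72276036), an inhibitor of the growth kinase mTORC1, stood at 9.90, 3.90 and 4.05 CPM in wild-type water libraries and 42.9, 38.9 and 42.1 CPM in zinc. In knockout it stood at 11.9, 13.2 and 12.01 CPM in water and 12.3, 13.2 and 11.5 CPM in zinc. The zinc libraries of wild type were thus above all others, knockout libraries overlapped between treatments, and 1 wild-type water library lay well above its group mates. The difference was -2.86 ± 0.19 (adjusted p = 1.89e-14).

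TRIB3 (ENSG00000101255, chromosome 20, 362835 to 397559), a pseudokinase that dampens AKT and ATF4 signalling, rose from 21.6, 21.7 and 20.8 CPM to 157, 137 and 129 CPM in wild type. Knockout libraries lay at 27.2, 25.7 and 29.6 CPM in water and 30.8, 31.6 and 29.04 CPM in zinc, ranges that overlapped. The difference was -2.58 ± 0.08 (adjusted p = 3.7e-24). STC2 (ENSG00000113739, chromosome 5, 173314713 to 173329503), a secreted stanniocalcin, went in opposite directions: from 29.5–33.4 up to 92.8–97.5 CPM in wild type and from 22.3–23.6 down to 16.8–18.6 CPM in knockout, with no overlap in either genotype (difference -1.98 ± 0.07, adjusted p = 2.69e-23).

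SESN2 (ENSG00000130766, chromosome 1, 28259527 to 28282491), a sestrin that also restrains mTORC1 and is a p53 target, did not pass the test between the genotypes in water (adjusted p = 0.0555). Its water libraries lay at 39.95, 39.4 and 37.6 CPM in wild type against 35.8, 37 and 36.7 CPM in knockout, and its zinc libraries at 548, 514 and 534 CPM and 144, 152 and 139.8 CPM. Both genotypes rose without overlap, 13.7-fold in wild type and 3.97-fold in knockout (difference -1.78 ± 0.05, adjusted p = 2.85e-25). The cystathionine gamma-lyase CTH (ENSG00000116761, chromosome 1, 70411218 to 70439851), which makes cysteine, went from 8.21–9.57 to 109–118 CPM in wild type and from 8.46–8.53 to 21.2–22.8 CPM in knockout (difference -2.26 ± 0.09). CTH is not in the ATF4 list, and it stood among the 10 lowest differences of all eligible genes.

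The same shape recurred in members outside the naming rule. CHAC1, which degrades glutathione, rose 28.9-fold in wild type (to 50.2, 44.7 and 53.8 CPM) and 8.55-fold in knockout (to 15.8, 17.2 and 15.9 CPM). ASNS, the asparagine synthetase, rose 12.8-fold and 4.04-fold, and DDIT3, the transcription factor CHOP, reached 231–254 CPM in wild type against 74.8–86.5 CPM in knockout. Each of these 3 had zinc libraries without overlap between the genotypes. The serine synthesis enzyme PSAT1 went from 177 ± 3.16 to 352 ± 6.17 CPM in wild type (mean ± SD, n = 3) and from 138 ± 2.44 to 143 ± 3.44 CPM in knockout, where zinc did not pass the test (adjusted p = 0.128).

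The 4 called above 0 were ATF4 itself, ATF5, and both chains of the CD98 amino acid transporter. ATF4 mRNA rose slightly more in knockout, from 294–313 to 495–504 CPM against 377–403 to 565–570.2 CPM in wild type (difference 0.18 ± 0.04). The heavy chain SLC3A2 had 0.72 ± 0.04 and the light chain SLC7A5 0.62 ± 0.04, and ATF5 had 0.34 ± 0.06. PPP1R15A (GADD34), the phosphatase subunit that ends the response, rose 16.7-fold in wild type and 12.2-fold in knockout (difference -0.45 ± 0.06).

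Aminoacyl-tRNA synthetases, which load amino acids onto tRNAs, had more calls below than above 0. CARS1, GARS1, AARS1, WARS1 and NARS1 are in both lists. In all, 11 of 20 were below 0 (10.5% of all genes) and 3 above (14.1%), with a median of -0.15. CARS1, which charges cysteine, went from 50.4 ± 1.28 to 133 ± 6.80 CPM in wild type and from 55.5 ± 1.82 to 70.6 ± 1.76 CPM in knockout (difference -1.06 ± 0.06). GARS1, YARS1 and IARS1, the glycine, tyrosine and isoleucine enzymes, had differences of -0.88 ± 0.05, -0.60 ± 0.04 and -0.50 ± 0.04. In knockout YARS1 did not pass the test for zinc (adjusted p = 0.463), and IARS1 fell by 0.06 ± 0.03. HARS1, FARSA and VARS1 were the 3 above 0.

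**Figure D2:**
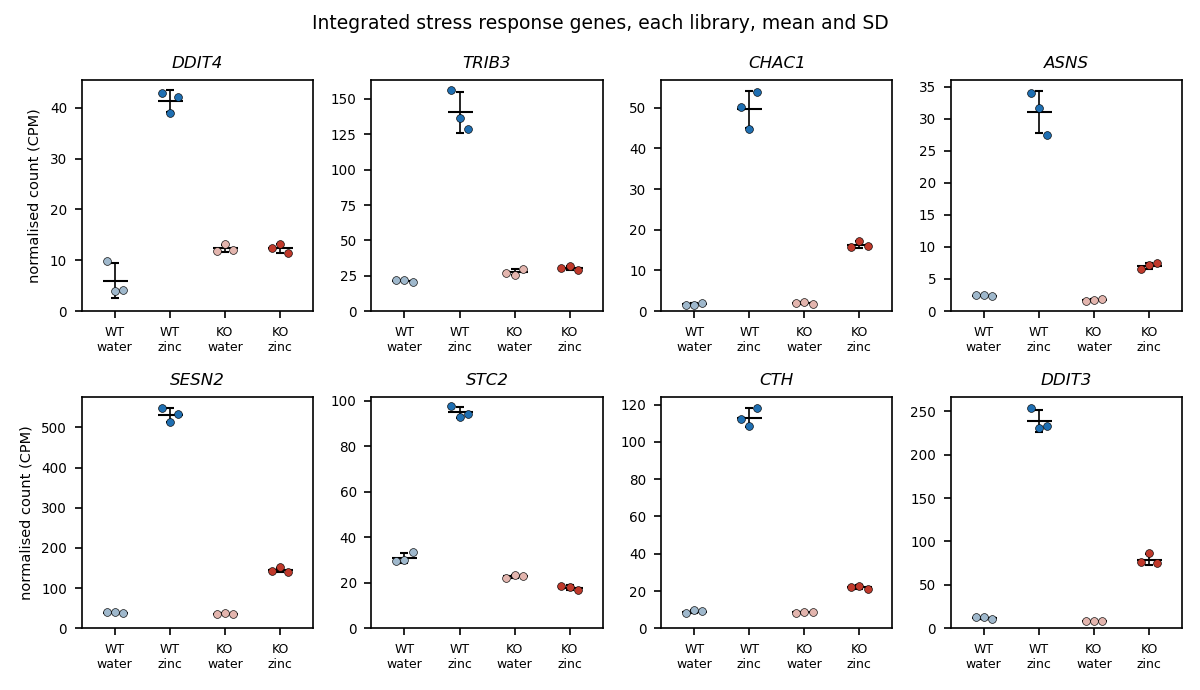
Normalised counts (CPM) of 8 genes of the integrated stress response and cysteine synthesis in each of the 12 water and zinc libraries; bars are the mean and SD of a group's 3 libraries. In all 8 genes the wild-type zinc libraries lie above the knockout zinc libraries, from 514–548 against 139.8–152 CPM for SESN2 to 27.4–34.1 against 6.55–7.42 CPM for ASNS.

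The promoters of 4 genes are shown: those of HSPA1A and HSPA6, chaperone genes with higher zinc induction in knockout, and those of CHAC1 and ASNS, with lower induction. HSPA1A and HSPA6 had the largest differences among 31 heat shock genes, whose median was 0.03 and of which 16 did not pass. They do not stand for that list. The sequences are the 250 bases before the RefSeq transcription start on GRCh38.p14, written 5′ to 3′ on the gene's strand: chr6:31815293-31815542 (+) for HSPA1A, chr1:161524290-161524539 (+) for HSPA6, chr15:40953221-40953470 (+) for CHAC1 and chr7:97872409-97872658 (-) for ASNS, the last being 1 of 2 listed promoters. Capitals mark a heat shock element core, searched as GAANNTTC or TTCNNGAA, in the chaperone genes and an ATF4 site, searched as TGATGNAA, in the others, both on either strand.
HSPA1A: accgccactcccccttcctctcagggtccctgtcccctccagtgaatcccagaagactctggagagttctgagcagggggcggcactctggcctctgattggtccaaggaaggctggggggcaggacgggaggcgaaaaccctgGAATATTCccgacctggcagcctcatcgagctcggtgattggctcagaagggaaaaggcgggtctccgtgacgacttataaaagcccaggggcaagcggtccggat
HSPA6: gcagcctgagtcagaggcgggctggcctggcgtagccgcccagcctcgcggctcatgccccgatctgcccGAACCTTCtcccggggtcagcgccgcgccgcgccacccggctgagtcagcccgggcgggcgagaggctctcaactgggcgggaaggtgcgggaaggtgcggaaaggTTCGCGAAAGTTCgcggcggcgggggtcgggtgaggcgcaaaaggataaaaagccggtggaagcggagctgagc
CHAC1: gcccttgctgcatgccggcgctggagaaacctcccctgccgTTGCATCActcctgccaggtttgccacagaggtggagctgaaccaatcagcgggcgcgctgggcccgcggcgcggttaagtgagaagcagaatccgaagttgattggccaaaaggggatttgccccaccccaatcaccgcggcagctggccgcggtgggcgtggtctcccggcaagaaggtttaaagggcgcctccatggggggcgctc
ASNS: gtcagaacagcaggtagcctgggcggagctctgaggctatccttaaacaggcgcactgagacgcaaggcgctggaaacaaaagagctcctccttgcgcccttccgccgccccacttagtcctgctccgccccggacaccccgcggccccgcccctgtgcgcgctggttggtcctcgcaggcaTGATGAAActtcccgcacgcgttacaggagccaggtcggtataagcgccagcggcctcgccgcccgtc

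HSPA1A held 1 match, HSPA6 held 3, of which 2 overlap, and CHAC1 and ASNS held 1 each, with the CHAC1 match on the opposite strand. RefSeq promoters of 300 bases (250 before and 50 after the start) were matched for 12818 of the tested genes, 18454 promoters in all. A heat shock element core stood in 10.7% of them, in 10.5% of promoters of genes called above 0 and in 16.7% of the 144 promoters of genes above 0 by at least 2-fold. The ATF4 site stood in 2.11% of all, in 2.96% of promoters of genes called below 0 and in 3.93% (9 of 229) of those below 0 by at least 2-fold. Other motifs were searched as well, and their shares at 2-fold above and below 0 follow, with that of all promoters in brackets. The TEAD site had 15.3% and 11.4% (11.7%), the AP-1 site 7.64% and 7.86% (5.47%). Cores of the antioxidant, metal and serum response elements had 16.7% and 15.7% (14.3%), 38.9% and 33.2% (36.7%), and 83.3% and 83.4% (87.6%). These shares describe letters in a window and not bound sites.

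Cytosolic chaperone genes split into a few with a much larger zinc response in knockout and a majority with little or no difference. Of 31 heat shock genes 12 were above 0 (14.1% of all genes; 10 without replicate 3 of zinc-treated wild type), 3 below (10.5%) and 16 did not pass, with a median of 0.03. Zinc raised 28 of them in wild type and 27 in knockout. The largest differences were in inducible Hsp70 genes.

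HSPA6 (ENSG00000173110, chromosome 1, 161524540 to 161526910), an Hsp70 that is nearly silent without stress, went from 1.42, 2.28 and 3.88 CPM to 329, 303 and 202 CPM in wild type and from 1.62, 2.26 and 1.46 CPM to 1438, 1333 and 1212 CPM in knockout. All 3 knockout zinc libraries stood above all 3 of wild type, and the lowest of these, replicate 3, is the library that stands apart. The difference was 2.84 ± 0.39 (adjusted p = 5.42e-07) and 2.66 without that library. HSPA6 shares reads with its near copy HSPA7, and their summed level reached 280.0 ± 67.7 and 1338 ± 113 CPM in wild type and knockout zinc libraries, so the contrast did not depend on how reads were split between them.

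HSPA1A (ENSG00000204389, chromosome 6, 31815464 to 31817946) rose from 1.34, 1.95 and 1.79 CPM to 16.6, 15.7 and 13.7 CPM in wild type and from 1.94, 1.72 and 1.93 CPM to 191, 169 and 153 CPM in knockout, the highest difference of all eligible genes at 3.36 ± 0.23 (adjusted p = 4.47e-14). The split of reads between HSPA1A and its near-identical copy HSPA1B is uncertain, and HSPA1B held most of them. Their sum went from 840.2 ± 75.8 to 4365 ± 322 CPM in wild type and from 899 ± 57.8 to 7036 ± 282 CPM in knockout (mean ± SD, n = 3), and HSPA1B had a difference of 0.56 ± 0.06. The 3.36 thus belongs to the few reads assigned to HSPA1A and does not stand for the pair.

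Other chaperone genes followed. HSPB1, the small heat shock protein Hsp27, went from 132–145 to 220.1–247 CPM in wild type and from 82.02–89.1 to 245–299 CPM in knockout (difference 0.92 ± 0.07). The genotypes overlapped in zinc, and the knockout libraries were lower in water. DNAJB1, the Hsp40 partner of HSPA1A, passed only narrowly at 0.16 ± 0.06 (adjusted p = 0.032) and lost the call in 8 of 20 settings. Below 0 stood DNAJB4 (-0.77 ± 0.08), CHORDC1 (-0.32 ± 0.05) and HSF2 (-0.21 ± 0.07). The call of HSF2, a transcription factor, was lost in 3 settings: without replicate 1 of zinc-treated knockout, replicate 1 of wild type in water or replicate 3 of zinc-treated wild type (-0.15, adjusted p = 0.0815). HSPH1, an Hsp110 nucleotide exchange factor, rose by 3.56 ± 0.04 in wild type and 3.57 ± 0.04 in knockout, and the difference of 0.01 ± 0.05 did not pass (adjusted p = 0.929).

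The unfolded protein response, which guards protein folding in the endoplasmic reticulum, had more calls above than below 0. Of 23 of its genes 11 were above 0 (14.1% of all genes), 4 below (10.5%; 2 without replicate 2 of zinc-treated wild type) and 8 did not pass, with a median of 0.12. Without replicate 3 of zinc-treated wild type 9 were above 0 and 5 below. Zinc raised 14 and lowered 5 in wild type and raised 20 and lowered 1 in knockout. HSPA5 (BiP), the main Hsp70 of the endoplasmic reticulum, lay at 1158, 1199.8 and 866 CPM in wild-type zinc libraries and 1987, 1869.6 and 1855 CPM in knockout ones, from 761–812 and 804–817 CPM in water. The difference was 0.78 ± 0.08, or 0.64 without replicate 3 of zinc-treated wild type, the lowest of its group.

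Some of these genes fell in wild type and rose in knockout. SDF2L1, a BiP cofactor, fell by 0.18 ± 0.06 and rose by 0.76 ± 0.06 (difference 0.95 ± 0.09). PDIA4, a disulfide isomerase, and CRELD2 had the same pattern with differences of 0.53 ± 0.05 and 0.46 ± 0.07. Members below 0 included XBP1 (-0.45 ± 0.05), a transcription factor of this response, and EDEM1 (-0.40 ± 0.05), which marks misfolded proteins for degradation. HERPUD1, which rose 7.30-fold in wild type and 7.22-fold in knockout, did not pass the test for a difference (-0.02 ± 0.07, adjusted p = 0.912).

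Metallothioneins, the small zinc-binding proteins that MTF1 switches on, rose in 5 of 6 tested in wild type, where MT1H did not pass, and in all 6 in knockout. Of the 6, MT1G alone passed the test for a difference (24.6% of all genes did). MT2A went from 17.1, 22.9 and 20.2 CPM to 1026, 980.0 and 844 CPM in wild type and from 24.8, 29.4 and 26.5 CPM to 1336, 1290.5 and 1231 CPM in knockout, a difference of 0.02 ± 0.09 (adjusted p = 0.908). MT1X had -0.31 ± 0.13 (adjusted p = 0.0678), which passed without replicate 3 of zinc-treated wild type (-0.37, adjusted p = 0.0108). MT1F went from 0.230–0.454 to 6.90–9.89 CPM in wild type and from 1.59–2.01 to 71.8–79.6 CPM in knockout, with knockout libraries higher under both treatments and a difference of 0.90 ± 0.34 (adjusted p = 0.0532). Summed over the MT1 genes and MT2A, which share sequence, levels rose from 23.7 ± 3.40 to 1248 ± 115 CPM in wild type and from 33.96 ± 2.39 to 1752 ± 55.8 CPM in knockout (mean ± SD, n = 3).

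MT1G rests on few reads in water. Its 3 libraries per group together held 2 counts in water and 27 in zinc in wild type, 13.8 times as much per library size (95% interval 3.47 to 120, counting error only), and 2 and 773 counts in knockout, 409 times as much (113 to 3382). The fitted difference had an adjusted p of 0.0252 and lost the call in 3 of 20 settings. The number of members above 0 was 0 without replicate 3 of wild type in water and 2 without replicate 3 of knockout in either treatment or replicate 1 or 2 of zinc-treated wild type. MT1B held 0 counts in water in both genotypes and 8 and 28 in zinc, and MT1H 0 in water and 4 and 44 in zinc. Taking 3 counts per group as the floor, their rises in knockout were at least 9.87-fold and at least 15.5-fold, and in wild type at least 2.73-fold and at least 1.36-fold. MT1E held 0 counts in water and 3 and 6 in zinc. No reads of MT1A, MT1M, MT3 or MT4 were counted in these 12 libraries.

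Of 23 genes (zinc transporters and MTF1), 3 were above 0 (14.1% of all genes) and 5 below (10.5%), with a median of -0.04. SLC30A1 (ENSG00000170385, chromosome 1, 211571568 to 211578742), the exporter of the plasma membrane, lay at 54.4–60.7 and 58.3–59.4 CPM in water and at 1012, 1076 and 982 CPM in wild-type and 671, 692 and 703 CPM in knockout zinc libraries. It rose 17.97-fold and 11.7-fold without overlap (difference -0.62 ± 0.05, adjusted p = 5.53e-12). The importer SLC39A10 fell in both and further in knockout (-0.45 ± 0.07), while SLC39A3 and SLC39A1 had 0.43 ± 0.09 and 0.30 ± 0.05. MTF1 itself rose by 0.93 ± 0.05 and 0.92 ± 0.05 (difference -0.01 ± 0.07, adjusted p = 0.949). The count above 0 was 5 without replicate 3 of either zinc-treated knockout or wild type in water.

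Immediate early genes went both ways. Of 28 tested, 8 were above 0 (14.1% of all genes) and 11 below (10.5%), with a median of -0.04, and zinc raised 25 of them in wild type and 27 in knockout. Several transcription factors of the AP-1 and EGR families rose less in knockout. EGR1 reached 929, 927 and 954 CPM in wild type, against 332, 402 and 370.1 CPM in knockout (difference -0.99 ± 0.13), and FOS and FOSB had -1.14 ± 0.20 and -1.26 ± 0.28. EGR3 rose more in knockout (1.29 ± 0.28), as did the orphan receptor NR4A1 (0.89 ± 0.11) and JUN (0.52 ± 0.05). EGR2 and ZFP36, an mRNA decay factor, did not pass, with differences of -0.12 ± 0.30 and 0.06 ± 0.14.

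MYC (ENSG00000136997, chromosome 8, 127735434 to 127741434), a transcription factor that promotes growth, was the 1 immediate early gene that zinc lowered in both genotypes. It fell from 64.2, 70.1 and 65.3 CPM to 4.68, 4.30 and 3.81 CPM in wild type and from 38.7, 37.9 and 37.96 CPM to 19.05, 16.8 and 19.4 CPM in knockout. Wild-type libraries were above knockout libraries in water and below them in zinc, with no overlap (difference 2.92 ± 0.10, adjusted p = 8.14e-24). IER5, a cofactor of HSF1 that also stands in this list, lay at 51.6, 51.6 and 54.3 and 51.5, 50.2 and 46.1 CPM in wild type, where zinc did not pass the test (adjusted p = 0.0578), and went from 66.97, 70.1 and 66.6 CPM to 248, 241 and 232 CPM in knockout (difference 1.92 ± 0.06).

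ARC (ENSG00000198576, chromosome 8, 142611044 to 142614472), a regulator of synapses and receptor endocytosis, had unequal starting levels. It rose from 2.49, 2.21 and 2.58 CPM to 19.7, 18.8 and 17.9 CPM in wild type, and from 30.5, 30.8 and 32.1 CPM to 44.5, 50.8 and 51.9 CPM in knockout. Knockout water libraries already stood above the wild-type zinc libraries. The log2 difference was -2.29 ± 0.12, while the change in CPM was larger in knockout by 1.54 CPM.

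Feedback inhibitors of MAP kinase signalling held several of the highest differences. Of 15 dual-specificity phosphatases, Sproutys and SPREDs, 8 were above 0 (14.1% of all genes; 5 without replicate 3 of knockout in water) and 4 below (10.5%), with a median of 0.20. DUSP4 (ENSG00000120875, chromosome 8, 29333064 to 29350668), a nuclear phosphatase of MAP kinases, fell from 44.5, 45.3 and 44.04 CPM to 11.5, 10.6 and 11.4 CPM in wild type. In knockout it stood at 35.7, 36.2 and 37.2 CPM in water and 42.7, 42.1 and 42.9 CPM in zinc, a small rise without overlap (difference 2.23 ± 0.08, adjusted p = 1.33e-22).

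SPRY4 (ENSG00000187678, chromosome 5, 142310427 to 142326455), an inhibitor of receptor tyrosine kinase signalling, started from 15.7–16.6 CPM in wild type against 4.39–4.82 CPM in knockout and ended at 39.2, 42.4 and 34.5 and 42.5, 40.7 and 41.9 CPM. The genotypes overlapped in zinc and not in water, and the difference was 1.92 ± 0.10. DUSP7 and DUSP2 had differences of 1.14 ± 0.08 and 1.18 ± 0.15. DUSP10, DUSP5, DUSP8 and DUSP16 were the 4 below 0, from -0.95 to -0.27.

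**Figure D3:**
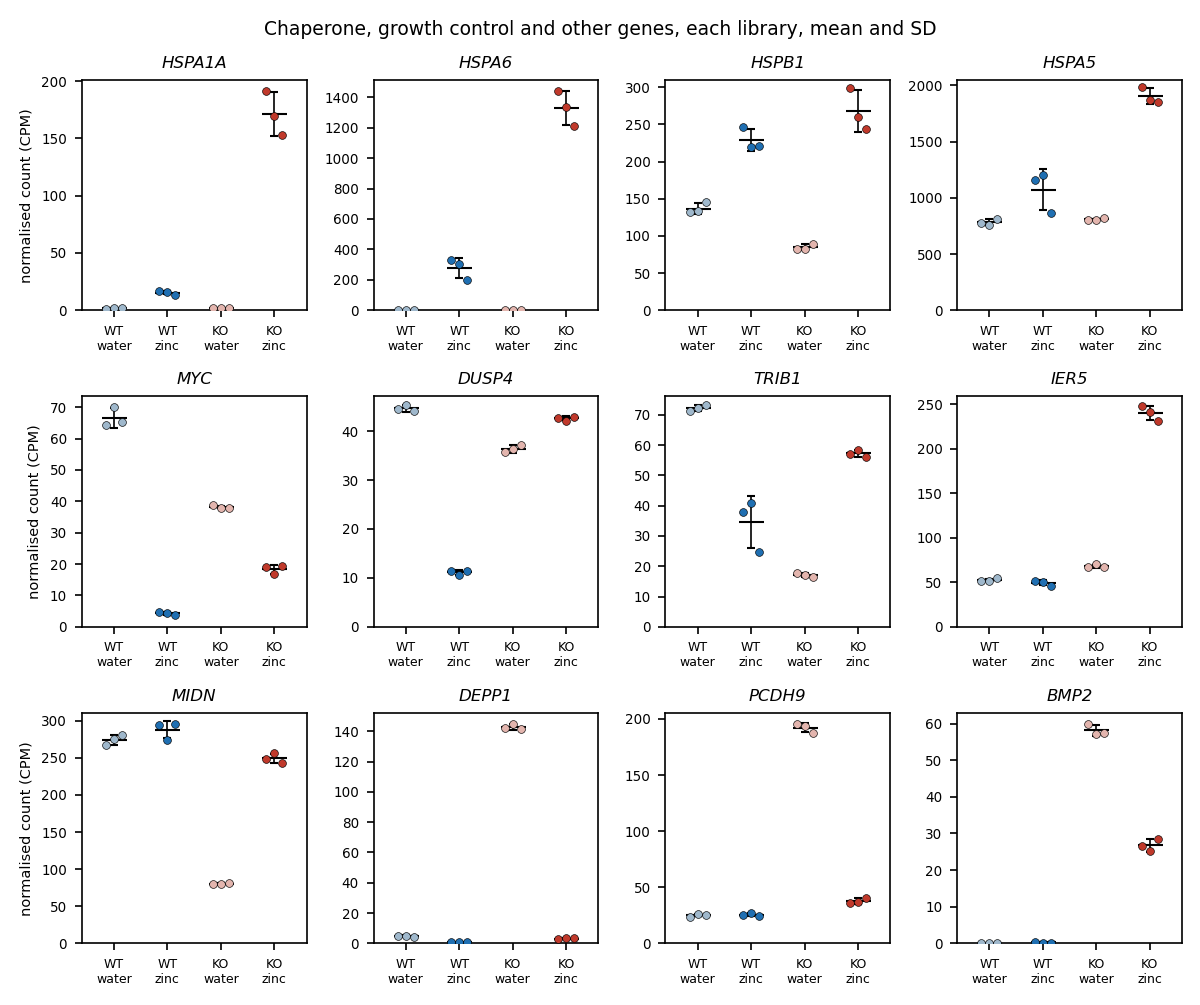
Normalised counts (CPM) of 12 genes in each of the 12 water and zinc libraries, with the mean and SD of each group's 3 libraries. HSPA1A, HSPA6 and HSPA5 end higher in knockout, HSPB1 starts lower there and overlaps in zinc, MYC, DUSP4 and TRIB1 fall in wild type and fall less or rise in knockout, and DEPP1, PCDH9 and BMP2 start high in knockout and fall there.

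TRIB1 (ENSG00000173334, chromosome 8, 125430321 to 125438405), a pseudokinase that brings proteins to the ubiquitin ligase COP1, went in opposite directions. It fell from 71.4, 72.3 and 73.2 CPM to 37.9, 40.8 and 24.7 CPM in wild type and rose from 17.7, 17.1 and 16.5 CPM to 57.1, 58.5 and 56.3 CPM in knockout. The wild-type water libraries were the highest of all and the knockout water libraries the lowest. The difference was 2.82 ± 0.12 (adjusted p = 1.25e-20), and 2.63 without replicate 3 of zinc-treated wild type.

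Homeobox factor DLX1, uncharacterised C6orf132, circadian factor DBP and PPP1R18, a phosphatase-1 subunit that binds actin, also fell in wild type and rose in knockout. DLX1 went from 19.96–22.1 to 11.6–11.8 CPM and from 8.72–9.60 to 12.9–15.6 CPM (difference 1.47 ± 0.10), and the others had 1.36 ± 0.10, 1.30 ± 0.13 and 1.05 ± 0.07. None of the 4 had overlapping treatments in either genotype. In DBP 23.8% of stranded counts were antisense, and the counts used here ignore strand.

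MIDN and RNF122 stood among the 10 highest from different starting levels. MIDN, midnolin, which carries nuclear proteins to the proteasome, lay at 268, 275 and 281 CPM and 294, 275 and 295 CPM in wild type without passing the test (adjusted p = 0.0653), and rose from 79.9, 79.3 and 81.6 CPM to 248, 256 and 244 CPM in knockout. Its knockout libraries thus came close to the wild-type level only in zinc (difference 1.57 ± 0.05). RNF122, a ubiquitin ligase, fell from 26.1, 25.2 and 26.2 CPM to 5.18, 4.34 and 5.24 CPM in wild type to about the knockout level, which was 6.73, 7.75 and 6.38 CPM in water and 5.92, 6.87 and 5.63 CPM in zinc (difference 2.21 ± 0.13).

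Several of the lowest differences belonged to genes that stood far higher in knockout than in wild type in water. DEPP1 (ENSG00000165507, chromosome 10, 44970981 to 44978810), a FOXO target linked to autophagy, fell from 5.14, 4.82 and 4.25 CPM to 0.847, 0.751 and 0.976 CPM in wild type and from 142, 145 and 141 CPM to 2.82, 3.33 and 3.25 CPM in knockout, the lowest difference of all eligible genes at -3.07 ± 0.23 (adjusted p = 5.16e-13). PCDH9 (ENSG00000184226, chromosome 13, 66302834 to 67230445), a protocadherin, lay at 23.8–25.9 and 24.5–27.3 CPM in wild type, where zinc did not pass the test (adjusted p = 0.665). In knockout it dropped from 196, 194 and 187 CPM to 35.7, 36.7 and 40.5 CPM (difference -2.39 ± 0.09).

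BMP2 (ENSG00000125845, chromosome 20, 6767664 to 6780280), a secreted bone morphogenetic protein, dropped in knockout from 59.9, 57.2 and 57.4 CPM to 26.6, 25.1 and 28.5 CPM. In wild type it was near the detection limit, at 0.0384, 0.0330 and 0.142 CPM in water and 0.373, 0.205 and 0.195 CPM in zinc, so its called rise there rests on few reads. The difference of -2.82 ± 0.54 (adjusted p = 0.000126) was -3.83 without replicate 3 of wild type in water. RIN2, TSC22D3, FOXC2 and SYNPO, the other 4 genes named for a rise in wild type and a fall in knockout, had differences of -1.64 ± 0.17, -1.61 ± 0.12, -1.55 ± 0.38 and -1.50 ± 0.22. All 4 were higher in each knockout library than in any wild-type library, and FOXC2 was under 1 CPM in wild type and had a difference of -2.23 without replicate 3 of wild type in water.

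ADAMTSL4 stood among the 10 lowest at -1.84 ± 0.16, but 47.9% of its stranded counts were antisense. With the strand that holds most reads its difference was 0.30, which did not pass the test (adjusted p = 0.447, edgeR).

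Targets of YAP and TAZ, the transcripts closest to the LATS kinases, did not share a direction. Of 26 tested, 3 were above 0 (14.1% of all genes) and 7 below (10.5%), with a median of -0.09, and the count below was 9 without replicate 3 of zinc-treated wild type and 4 without replicate 2 of wild type in water. Of these 26, 25 had a mean of at least 5 CPM, a level at which 4071 of all 11333 genes were called. ANKRD1, a muscle ankyrin repeat protein, lay at 47.3, 42.1 and 50.8 CPM in water and 524, 534 and 235 CPM in zinc in wild type, with replicate 3 far below the others. In knockout it lay at 454, 427 and 412 and 2612, 2466 and 2404 CPM, so it gained more CPM there (a difference of changes of 1679 CPM) from a higher start. Its log2 difference was -0.67 ± 0.19 (adjusted p = 0.00828), and -0.96 without that replicate. With limma-voom the call was lost (-0.57, adjusted p = 0.0805).

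CCN1 and CCN2, matricellular proteins often used as readouts of YAP, are given side by side. CCN1 lay at 122–131 and 368–381 CPM in water and at 139, 166 and 98.3 and 379.9, 379 and 407 CPM in zinc, with a difference of -0.02 ± 0.11 (adjusted p = 0.932). Without replicate 3 of zinc-treated wild type that value was -0.20 (adjusted p = 0.00904). CCN2 fell in both, from 175–196 to 85.3–119 CPM and from 385–416 to 278–285 CPM (difference 0.31 ± 0.09, 0.18 without that replicate). With DESeq2 the call of CCN2 was lost. F3, tissue factor, had -1.06 ± 0.14, and AMOTL2, a scaffold that binds YAP, had 0.38 ± 0.05.

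Among 29 components of the Hippo pathway 8 were above 0 (14.1% of all genes) and 6 below (10.5%), with a median of -0.02. Without replicate 3 of zinc-treated wild type 6 were above 0 and 7 below. YAP1 lay between 99.8–105 CPM in wild-type water and 102–103 CPM in knockout zinc libraries and did not pass (0.02 ± 0.05). WWTR1, which encodes TAZ, passed by a margin that 13 of 20 settings removed (0.17 ± 0.06, adjusted p = 0.0454). TAOK2, a kinase upstream of LATS, fell from 91.7–96.5 to 44.4–48.6 CPM in wild type and from 78.3–80.4 to 59.2–62.9 CPM in knockout (difference 0.64 ± 0.06). STRN3, a subunit of the phosphatase complex that opposes the upstream kinases, had -0.37 ± 0.06. Of 18 actin cytoskeleton genes 6 were above 0 (14.1% of all genes) and 1, TPM4, below (10.5%). Without replicate 3 of zinc-treated wild type 3 were above 0, and TPM4 lost its call without replicate 1 or 2 of zinc-treated wild type, replicate 2 of wild type in water, replicate 1 of knockout in water or any 1 zinc-treated knockout library. ACTB and ACTG1, the cytoplasmic actins, had 0.17 ± 0.04 and 0.15 ± 0.04, and MYH9 and VCL passed only with that replicate.

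Genes of the Notch pathway, a cell contact signal, were called above 0 or not at all. Of 15, 6 were above 0 (14.1% of all genes) and 0 below (10.5%; 1 without replicate 3 of zinc-treated wild type), with a median of 0.28. HEY1 (ENSG00000164683, chromosome 8, 79764010 to 79767863), a repressor switched on by Notch, fell from 35.7, 40.1 and 33.3 CPM to 7.96, 7.0 and 7.55 CPM in wild type and from 20.5, 21.01 and 20.95 CPM to 16.8, 15.5 and 15.3 CPM in knockout. Knockout zinc libraries stood above those of wild type, although in water the order was reversed (difference 1.88 ± 0.11, adjusted p = 9.87e-17). HES1, another target, had 0.60 ± 0.12, and NRARP, a feedback inhibitor, fell in wild type and rose in knockout (0.73 ± 0.06). The ligand DLL3 had 0.42 ± 0.13, a call lost in 1 setting, and the receptor NOTCH1 0.34 ± 0.06.

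BMP and ID genes gave 6 above 0 (14.1% of all genes) and 3 below (10.5%) of 13. Of the ID inhibitors of differentiation ID2, ID3 and ID4 fell less in knockout. ID3 went from 66.1–70.9 to 27.6, 32.5 and 19.7 CPM in wild type and from 73.9–77.6 to 57.99, 50.8 and 55.5 CPM in knockout (difference 0.92 ± 0.11, 0.74 without replicate 3 of zinc-treated wild type), and ID2 and ID4 had 0.51 ± 0.10 and 0.42 ± 0.07. Of 9 EGF ligands and receptors 1, ERBB2, was above 0 (0.34 ± 0.06) and 0 below, against 14.1% and 10.5% of all genes. Without replicate 3 of zinc-treated wild type 1 was below.

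Among called cell cycle genes, those of DNA replication lay mostly above 0 and those of mitosis mostly below. Of 27 DNA replication genes 11 were above 0 (14.1% of all genes) and 1, RFC3, below (10.5%), with a median of 0.10. The count below was 0 without replicate 1 of knockout in water, replicate 2 of zinc-treated knockout, replicate 3 of wild type in water or replicate 2 of zinc-treated wild type. PCNA, the sliding clamp, fell from 316–322 to 226–247 CPM in wild type and lay at 318–341 and 308–314 CPM in knockout (difference 0.37 ± 0.04), and CDC6, ORC1 and RFC5 had 0.27 ± 0.04, 0.23 ± 0.06 and 0.22 ± 0.05. Of 21 mitosis genes 10 were below 0 (10.5% of all genes) and 3 above (14.1%), with a median of -0.10. The mitotic kinesins and checkpoint kinase CENPE, KIF23 and TTK had -0.51 ± 0.06, -0.34 ± 0.05 and -0.36 ± 0.06, and CENPE rose with zinc in wild type and fell in knockout. ANLN, an organiser of the cleavage furrow, was opposite in direction (0.37 ± 0.05).

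Replication-dependent histone genes gave 0 above (14.1% of all genes) and 7 below (10.5%) of 15, with a median of -0.58. H4C8 rose from 0.992–1.32 to 17–18.7 CPM in wild type and from 0.775–1.54 to 6.36–6.95 CPM in knockout (difference -1.48 ± 0.23), and H2BC21, H2AC6 and H1-2 had -1.13 ± 0.22, -0.58 ± 0.14 and -0.46 ± 0.13. These genes resemble each other, their mRNAs mostly lack a poly(A) tail, and the libraries were selected for polyadenylated RNA, so the counts cover only part of them. Of 24 p53 targets 11 were below 0 (10.5% of all genes) and 5 above (14.1%). The count above was 3 without replicate 3 of knockout in water, replicate 1 or 2 of wild type in water or replicate 2 of zinc-treated wild type. MDM2, the ubiquitin ligase that removes p53, fell in knockout from 214–218 to 150.3–160.1 CPM and did not pass the test in wild type (difference -0.53 ± 0.04). PLK3, a stress kinase, had 0.87 ± 0.12 and TP53INP1 -0.43 ± 0.13.

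Among metabolic lists, cholesterol synthesis genes gave 6 above (14.1% of all genes) and 6 below (10.5%) of 22. HMGCS1 and MSMO1, enzymes early and late in the pathway, had -0.43 ± 0.05 and -0.67 ± 0.07, and the squalene epoxidase SQLE had 0.40 ± 0.05. Hypoxia response genes gave 6 above (14.1% of all genes) and 3 below (10.5%) of 15. NDRG1 fell in wild type and rose in knockout (0.94 ± 0.05). The lipid droplet protein HILPDA had 0.84 ± 0.17, EGLN3, an oxygen sensor, 0.50 ± 0.14 and the glucose transporter SLC2A1 -0.52 ± 0.06. Ribosome biogenesis factors gave 9 above (13 without replicate 3 of zinc-treated wild type) and 2 below, WDR43 and NPM1, of 27, against 14.1% and 10.5% of all genes. At least 1 of those 2 lost its call without any 1 of the 12 libraries except replicate 2 of knockout in water and replicate 2 of zinc-treated wild type, and 0 were left without replicate 3 of zinc-treated wild type. RRS1, NOP16, UBTF and PES1 fell less in knockout, with differences of 0.42, 0.36, 0.23 and 0.22, and 30.6% of the stranded counts of NOP16 were antisense.

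NRF2 targets gave 3 above (14.1% of all genes) and 5 below (10.5%) of 31. Of these 31, 25 had a mean of at least 5 CPM, and 4071 of all 11333 genes at that level were called. SLC7A11, the cystine importer that ATF4 also controls, rose from 20.7–22.5 to 193, 203 and 179 CPM in wild type and from 21.4–22.7 to 95.6, 97.7 and 95.4 CPM in knockout (difference -1.03 ± 0.09). TXNIP, which binds thioredoxin, fell less in knockout (1.07 ± 0.14), FTL, the ferritin light chain, had 0.32 ± 0.04 and the malic enzyme ME1 -0.30 ± 0.05. HMOX1, the heme oxygenase, lay at 542, 524 and 326 CPM in wild-type zinc libraries, with replicate 3 below the others, and 263, 238 and 237 CPM in knockout ones, and its difference did not pass (-0.59 ± 0.23, adjusted p = 0.054). Without that replicate it passed, at -0.79 (adjusted p = 1.35e-08).

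Proteasome subunits gave 3 above (14.1% of all genes; 1 to 6 over the 20 settings) and 3 below (10.5%) of 31, with PSMA1, PSMD14 and PSMD12 at -0.30, -0.23 and -0.18 and PSMD2 at 0.14. NF-kB targets gave 3 calls of 16, against 24.6% of all genes: 1 above, NFKBIE (0.37 ± 0.11), and 2 below, REL (-0.46 ± 0.12) and RELB (-0.52 ± 0.15). With no filter on low counts the call of NFKBIE was lost (0.36, adjusted p = 0.0545), and 4 were below without replicate 2 of zinc-treated wild type. Of 13 mitochondrially encoded mRNAs 4 were below 0 (10.5% of all genes), MT-ND4L, MT-ND4, MT-CO1 and MT-CYB, with log2 differences of -0.19 to -0.10. This count ran from 0 without replicate 1 of zinc-treated wild type, replicate 3 of wild type in water or replicate 3 of zinc-treated knockout to 7 without replicate 3 of knockout in water, and was 1 or 2 without replicate 1 or 2 of knockout in water, replicate 2 of zinc-treated knockout or replicate 2 of wild type in water.

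Markers of other cells were read in the same libraries. Of 12 kidney tubule markers 4 were tested, and their summed level ran from 25.8 to 29.9 CPM over the wild-type libraries and from 18.8 to 21.6 CPM over the knockout libraries. LRP2 carried most of it, with a difference of -0.22 ± 0.08 that lost its call in 9 of 20 settings, AQP2, CDH16 and SLC34A1 had few counts, and UMOD had 0 counts in all 4 groups. Neuronal and adrenal markers summed to 564 to 680.3 CPM in wild type and 387 to 425 CPM in knockout, mostly UCHL1, and TUBB3, a neuronal tubulin under 7 CPM, was the 1 of 8 tested that passed (-1.47 ± 0.39). Keratinocyte and epithelial markers summed to 459 to 526 CPM in wild type and 2461 to 2692 CPM in knockout, mainly the keratins KRT8 and KRT18, and 0 of 4 tested passed. The keratinocyte keratin KRT1 had 0 counts. Of 5 tested fibroblast markers 0 passed (1 below 0 without replicate 3 of zinc-treated wild type), and the list summed to 12.1 to 15.01 CPM in wild type and 52.3 to 65.4 CPM in knockout. Blood cell markers summed to 2.46 to 6.53 CPM in all libraries, with 0 counts of HBB, and CD74, with 75.5% antisense counts, was the 1 of 3 that passed. Except in blood cell markers, summed levels differed more between genotypes than between water and zinc, and their part in the differences of the zinc response was not tested.

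**Figure D4:**
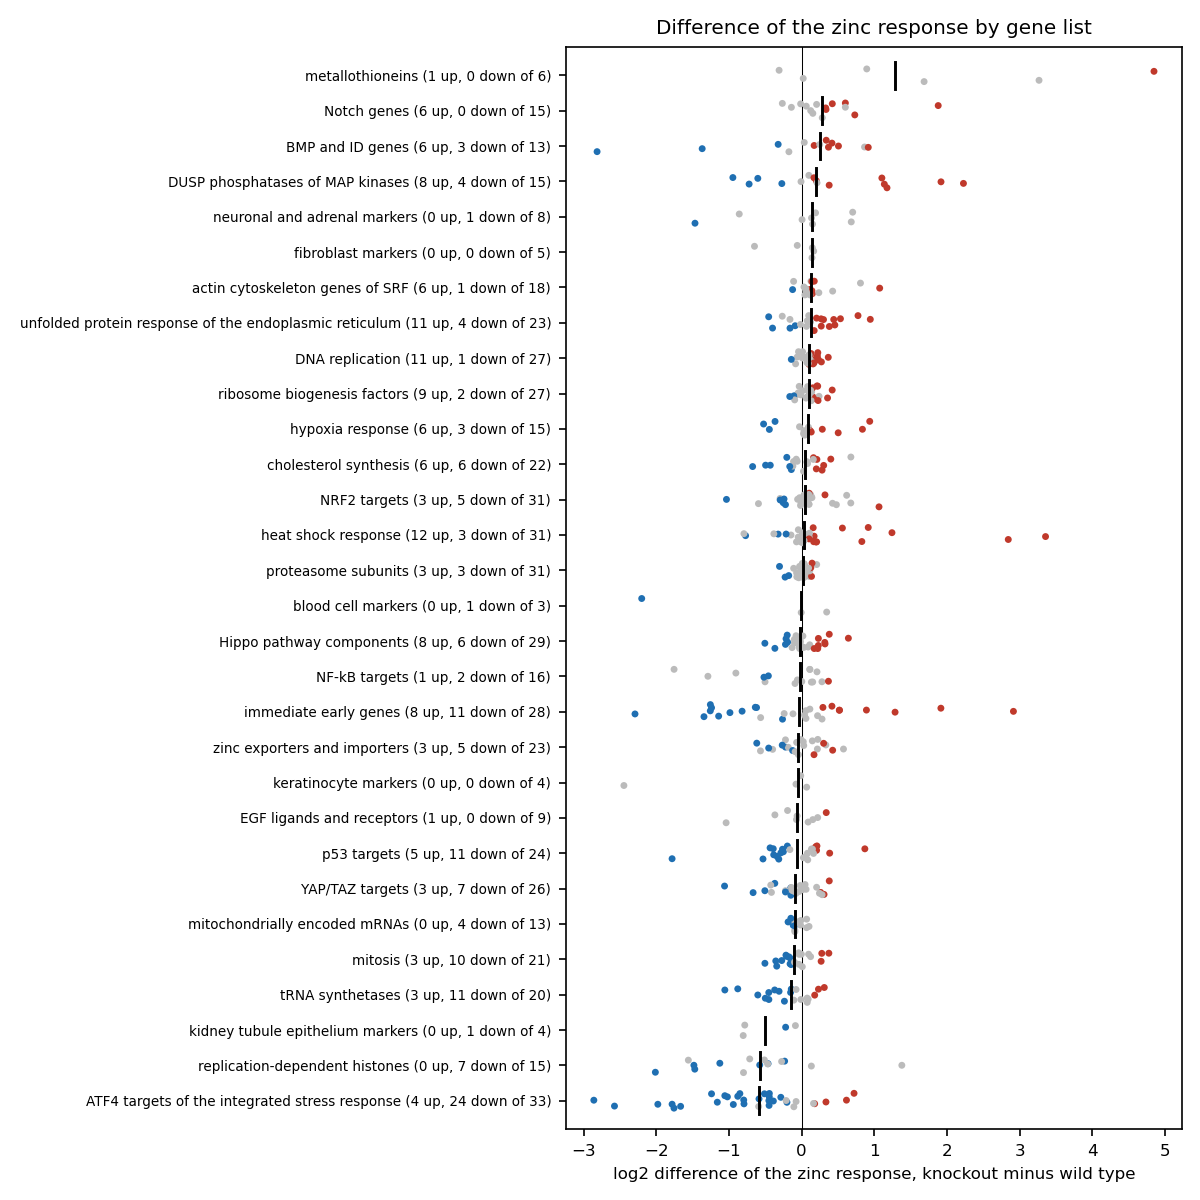
Log2 differences of the zinc response (knockout minus wild type) of every tested member of the 30 gene lists, with red and blue for called differences above and below 0, grey for the rest and a black bar for the list's median. The ATF4 targets have the lowest median (-0.59) with 24 of 33 called below 0, and 3 of the 6 metallothioneins, MT1G, MT1B and MT1H, have values that rest on a handful of reads in water.

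Cadmium, a toxic metal, was given to both genotypes as well. The difference for zinc minus that for cadmium, in which the water libraries cancel, tests whether a value belongs to 1 metal more than the other, and 4571 genes (23.6%) passed, 2701 above 0 (13.9%) and 1870 below (9.64%). Of the 503 genes with a called zinc difference of at least 2-fold 152 passed. Of the 20 genes with the highest and lowest zinc differences 19 passed, HEY1 being the exception (0.20 ± 0.11, adjusted p = 0.213). Both sets were picked by their zinc difference, which is part of this contrast, so these counts partly follow from the choice. In all 20 the cadmium difference had the same sign as the zinc difference. The metals were given at 250 and 50 uM, so metal and dose cannot be told apart. The zinc and cadmium differences themselves share their water libraries, so they are only set side by side.

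Of 33 ATF4 targets 22 lay lower for zinc than for cadmium (9.64% of all genes) and 4 higher (13.9%), and the list's median difference was -0.59 in zinc and -0.18 in cadmium. DDIT4 had -2.86 ± 0.19 in zinc and -0.57 ± 0.18 in cadmium (zinc minus cadmium -2.29 ± 0.14, adjusted p = 2.25e-15). CHAC1 had -1.76 ± 0.19 and 0.34 ± 0.19, and STC2 -1.98 ± 0.07 and -0.26 ± 0.06. Immediate early genes went the other way: 24 of 28 lay higher for zinc than for cadmium (13.9% of all genes) and 1 lower (9.64%), with medians of -0.04 and -1.25. ARC, for example, had -2.29 ± 0.12 in zinc and -3.03 ± 0.13 in cadmium.

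Several of the highest and lowest genes also differed between the metals. RNF122 had 2.21 ± 0.13 in zinc and 0.18 ± 0.12 in cadmium (zinc minus cadmium 2.03 ± 0.14), MIDN 1.57 ± 0.05 and 0.35 ± 0.05, PCDH9 -2.39 ± 0.09 and -0.69 ± 0.10. HSPA1A, whose split of reads from HSPA1B is uncertain, had 3.36 ± 0.23 and 2.62 ± 0.23, and MYC 2.92 ± 0.10 and 2.27 ± 0.08. IER5 had the larger difference in cadmium (2.23 ± 0.05). SLC30A1 did not pass, with -0.62 ± 0.05 and -0.72 ± 0.05 (zinc minus cadmium 0.10 ± 0.04, adjusted p = 0.106). YAP/TAZ targets gave 12 of 26 higher for zinc than for cadmium (13.9% of all genes) and 1 lower (9.64%).

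**Figure D5:**
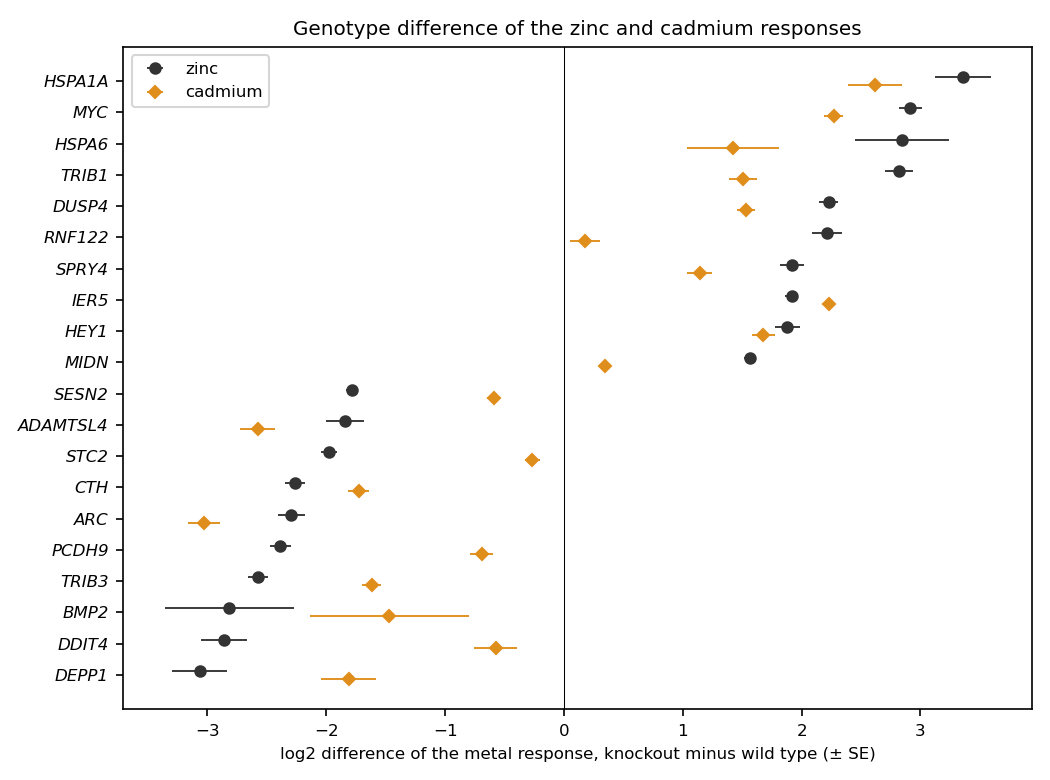
Log2 difference of the zinc response (black circles) and of the cadmium response (orange diamonds) between knockout and wild type for the 10 highest and 10 lowest zinc differences, with approximate standard errors as bars. The values of the 2 metals share water libraries and lie furthest apart for DDIT4, RNF122, STC2 and PCDH9 and close together for HEY1 and IER5.

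On the scale of CPM changes rather than log2 changes, 178 of the 4767 called genes (3.73%) had the opposite sign. Among the named genes these were ANKRD1, ARC, CCN2, FTL, ID2 and RELB. Others had the same sign on both scales, such as DDIT4 at -35.4 CPM, TRIB3 at -116 CPM, HSPA6 at 1051 CPM and HSPA5 at 802 CPM.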

How the data were processed

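Poly(A)-selected, stranded RNA libraries were made from HEK293A cells, per the labels' protocols. The deposited values are raw read counts per Ensembl gene. The submitters' processing notes name STAR, hg38 and GRCh38.p13, and the counting tool is not given in the sources used here. The deposited series table of counts holds both strands together, and the smaller strand column of the sample files held 4.84% to 5.45% of stranded counts. Of 58336 gene IDs 58216 were found in GENCODE 29, which gave positions, and 57754 had a symbol.

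The counts were fitted with edgeR 4.0.16 (R 4.3.3) for all 18 libraries as 6 groups, with TMM scaling, filterByExpr (minimum count 10, 19393 genes kept), the quasi-likelihood test and Benjamini-Hochberg adjustment over all genes. The zinc response difference was (knockout zinc - knockout water) - (wild-type zinc - wild-type water). Standard errors were approximated as the absolute log2 value over the square root of F. Genes named were those with an adjusted p under 0.05, a symbol and 5 CPM or more on average in the 12 libraries that were the 10 highest or 10 lowest, in each orientation the 5 called oppositely in the genotypes whose smaller change was largest, or the up to 4 largest in each of 30 lists. LATS1, LATS2, YAP1, WWTR1, CCN1, CCN2, ANKRD1, MTF1, SLC30A1, tested metallothioneins and 5 genes with large zinc changes, a difference under 0.2 and an adjusted p over 0.05 (EGR2, HSPH1, MT2A and ZFP36 among them) were added, 121 in all, of which some are not reported here. The members and lists were chosen with earlier results of these data known. Promoters were read from RefSeq (GRCh38.p14).

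Libraries held 25478614 to 37148046 counts. On simulated counts of 19201 genes with these depths, 72%, 96%, 100% and 100% of 50 genes each changed by 1.25, 1.5, 2 and 4-fold in the zinc response difference were recovered, with 9 unchanged genes called. The changed genes were drawn from those with a mean of at least 5 CPM, so recovery of genes below that level was not tested. Alternatives were DESeq2 1.42.0, limma-voom 3.58.1, no TMM factors, no filter on low counts, at least 5 CPM in 3 libraries, the 12 water and zinc libraries alone, the strand column with most reads, a replicate block, and each of the 12 libraries left out. Tables and figures were made with Python 3.11.15, numpy 2.4.6, pandas 2.3.3, scipy 1.17.1 and matplotlib 3.10.9.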

Additional observations from a re-analysis of the deposited data

Results flagged for a closer look

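The zinc response differed between the genotypes, by the test of the difference itself, for 4767 of 19393 genes. In 311 of these zinc acted in opposite directions, with both changes past the threshold. Named for this pattern were, in each orientation, the 5 genes whose smaller change was largest: BMP2 (-2.82), RIN2 (-1.64), TSC22D3 (-1.61), FOXC2 (-1.55) and SYNPO (-1.50), which rose in wild type and fell in knockout, and TRIB1 (2.82), DLX1 (1.47), C6orf132 (1.36), DBP (1.30) and PPP1R18 (1.05), which did the reverse. The values are log2 differences of the zinc response, which for genes outside this rule, such as STC2 (-1.98) and DUSP4 (2.23), could be larger.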

How the results depend on the processing

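The number of genes with a called difference, 4767, was 4244 with DESeq2, 4644 with library size alone, 4292 with no filter on low counts, 4472 with at least 5 CPM in 3 libraries, 4838 with the 12 water and zinc libraries, 4733 with limma-voom and 4862 with the strand column that holds most reads. With 1 library left out it was 4194 to 4679 (2457 to 2697 above 0 and 1692 to 1982 below). At least 2-fold above 0 were 188 genes, but 111 with DESeq2 and 47 with the 5 CPM filter, which tests fewer genes, and 315 below 0 became 87 with that filter; the cause of the DESeq2 count was not tested. Of 108 named genes with a call 93 kept call and direction in every one of the 20 settings in which they were tested, as did 114 of 160 called list members outside the naming rule. Among the named genes calls were lost most often for WWTR1 (13 settings), MT-ND4L (10), LRP2 (9), MT-ND4 (8) and MT-CYB (7). Among the other list members they were lost most often for DDB2 (15), SPRED2 (13), CDKN1A (12), CANX (12) and POLD1 (11). Signs turned for ADAMTSL4 with the strand column (0.30) and, among genes without a call, for CCN1 with limma-voom (0.015), HSPH1 with DESeq2 (-0.010), the 5 CPM filter (-0.0033) and library size alone (-0.017), MT2A with DESeq2 (-0.0011) and library size alone (-0.0039), and YAP1 with DESeq2 (-0.0013), library size alone (-0.0082) and the strand column (-0.0076). Leaving out 1 library, differences ran from -0.20 to 0.16 for CCN1, -0.017 to 0.056 for HSPH1, -0.077 to 0.11 for MT2A and -0.059 to 0.051 for MTF1. Same-numbered libraries of different groups did not deviate together over all genes (18 correlations of -0.0249 to 0.0308, against -0.0325 to 0.0178 for other numbers). A pairing that touches few genes could be missed by these correlations. A replicate block gave 5072 calls, 2922 above and 2150 below 0. The depth limits genes under about 1 CPM, such as MT1G and BMP2 in wild-type water libraries.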
